A study of Canis lupus familiaris with 13 samples.

Results

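Genes of the B lymphocyte lineage, 9 in number, were followed through 13 tumor biopsies from companion dogs. They were taken by symbol from a table of raw read counts: 9 of 43427 gene symbols in all, and 9 of the 20118 that passed the filter on low counts. The B cell genes were CD79A, CD79B, MS4A1, PAX5 and BLK, the plasma cell genes were JCHAIN, MZB1 and TNFRSF17, and POU2AF1 was kept apart because both stages use it. All 3 dogs were given IMAX into the tumor, a formulation of a polyethyleneimine and lithocholic acid conjugate (2E'), paclitaxel and a cyclic dinucleotide that activates the STING pathway. Dog RV carried a soft tissue sarcoma, sampled before treatment, 2 days after the second dose ("early"), and 2 weeks after the third dose ("late") at the injection site and beside it. The paper diagnosed the early RV biopsy as granulomatous to pyogranulomatous dermatitis, without definite tumor cells in its sections, so the early RV library may hold little or no tumor. Dog CL carried a cranial and a caudal mammary tumor, each sampled before treatment and 1 week (early) and 1 month (late) after the second dose. Dog BM had its left caudal mammary mass sampled before treatment and 1 week (early) and 3 weeks (late) after the second dose. There were therefore 4 libraries before treatment, 4 early and 5 late. The dogs were adult females, spayed in RV and BM and intact in CL. No untreated tumor was analysed here, the late tissue came from surgery, and time since treatment differed between dogs, so treatment, time and sampling method cannot be told apart.

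B lymphocytes recognize antigen through a surface immunoglobulin that has no signaling tail of its own and is paired with CD79A and CD79B, whose tails are phosphorylated by Src family kinases such as BLK. PAX5 is the transcription factor that holds cells to the B lineage, and MS4A1 encodes the surface protein CD20. When a B cell becomes an antibody-secreting plasma cell it shuts down PAX5 and MS4A1 and turns on the secretory machinery. MZB1 is a chaperone of the endoplasmic reticulum that helps immunoglobulin fold, JCHAIN joins IgA and IgM into polymers, and TNFRSF17 (BCMA) is the receptor for the plasma cell survival ligands APRIL and BAFF. POU2AF1 is a coactivator that binds octamer factors at immunoglobulin promoters and stays on in plasma cells. In tumors both stages can be found, scattered or gathered in lymphoid aggregates. In a bulk biopsy, fewer cells of a type and less RNA per cell cannot be told apart.

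Library totals ran from 16259854 to 27707651 counts before treatment, from 14211531 to 27611423 early and from 11622444 to 29931125 late. At that depth most of the 9 genes were measured by few reads: MS4A1 had 0 to 53 counts in a library, TNFRSF17 2 to 328 and CD79A 2 to 472, against 695 to 20517 for JCHAIN. Levels are given as CPM, read counts scaled to the size of the library with TMM factors, and every interval is an exact 95% interval that covers counting error only. The 3 BM libraries carry names of another series than the other 10, and any difference in how they were made cannot be told apart from the dog. The early RV library stood apart from the other 12. Long noncoding RNA took 5.42% of its counts (at most 1.74% elsewhere), ribosomal protein genes took 3.16% (16.5% in RV before treatment), and the summed level of 8 epithelial marker genes was 1130 CPM against 46.2 CPM before treatment in that sarcoma. In the mammary tumors these epithelial markers summed to 524 to 6400 CPM before treatment, and in the late BM library to 216 CPM.

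CD79A (chr1:113151211-113154758) and CD79B (chr9:15081786-15085109 in the CanFam4 assembly, as are all positions here) encode the receptor's signaling pair. CD79A stood at 1.07 CPM before treatment, 8.08 early and 5.68 late in the CL cranial tumor, at 0.120, 1.06 and 1.77 CPM in the CL caudal tumor, and at 3.0, 16.8 and 5.33 CPM in BM. In RV it was 1.2 CPM before, 1.12 early, and 2.31 at the injection site and 1.21 beside it late. Thus the 3 mammary tumors were higher at both later times, whereas RV was not higher early, and its late value of 1.44-fold (0.831 to 2.61) did not differ from 1 beyond counting error. CD79B stood at 1.5, 4.58 and 4.02 CPM in CL cranial, 0.120, 0.407 and 1.02 CPM in CL caudal, and 3.28, 11.8 and 1.85 CPM in BM. In RV CD79B stayed between 0.339 and 0.730 CPM in all 4 libraries. The BM tumor was where the pair parted late: CD79A was 1.78-fold (1.36 to 2.32) its level before treatment and CD79B 0.564-fold (0.389 to 0.803).

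MS4A1 (chr21:51664248-51675690) was the least counted of the 9. It was read 0 times in CL caudal before treatment, 2 times early and 16 times late, so that against a floor of 3 counts the late library was at least 6.08-fold higher. In CL cranial it went from 0.0968 CPM (2 counts) through 1.49 to 2.10 CPM, and in BM from 1.47 through 1.49 to 0.336 CPM. The RV libraries held 0.121 to 0.393 CPM, 2 to 7 counts each. CL and BM therefore ended on opposite sides of their starting levels, with BM at 0.228-fold (0.0937 to 0.483).

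PAX5 (chr11:53528788-53723946) gave the widest late split of the 9 genes. CL cranial passed from 1.07 to 6.03 and then 13.7 CPM, and CL caudal from 0.419 to 0.978 and 4.02 CPM. In BM it held at 3.97 and 5.01 CPM and then stood at 0.462 CPM late. In RV it was 0.866 CPM before treatment, 9.82 early, and 0.339 and 0.242 CPM at the late sites. Late PAX5 was thus 12.9-fold (8.21 to 21.1) its starting level in CL cranial and 9.61-fold (4.38 to 24.9) in CL caudal, but 8.60-fold lower (4.66 to 17.6) in BM.

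BLK (chr25:26488713-26563761) was the most even of the 9 early. Its ratio to the level before treatment was 3.49 (2.31 to 5.43) in RV, 4.25 (2.92 to 6.38) in CL cranial, 3.41 (1.39 to 10) in CL caudal and 3.10 (2.26 to 4.32) in BM. The 4 libraries before treatment averaged 1.36 ± 0.689 CPM (SD, n = 4) and the early ones 4.9 ± 2.61 CPM, and the groups still overlapped, because CL caudal began at 0.359 CPM and reached only 1.22 CPM. Late, BLK was at 7.43 CPM in CL cranial and 1.5 CPM in CL caudal, at 1.51 CPM in BM, which had begun at 1.56 CPM, and at 1.29 and 0.544 CPM in RV, which had begun at 1.93 CPM.

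POU2AF1 (chr5:21707004-21730740), the coactivator shared by both stages, was higher late than before treatment in all 4 tumors. It rested at 4.11 CPM in CL cranial, 4.49 in CL caudal, 2.25 in BM and 0.600 in RV before treatment, and late at 36.4, 15.9 and 5.75 CPM in the mammary tumors and 0.746 and 1.51 CPM at the RV sites. The late ratio was 8.83 (6.98 to 11.3) in CL cranial, 3.54 (2.72 to 4.66) in CL caudal and 2.56 (1.93 to 3.41) in BM. In RV it was 1.92 (0.907 to 4.53), an interval that holds 1. Early the order was another: BM was at 22.0 CPM, 9.77-fold (7.74 to 12.5), RV at 4.71 CPM, 7.86-fold (3.95 to 17.8), CL cranial at 8.65 CPM and CL caudal at 3.95 CPM, 0.881-fold (0.645 to 1.21).

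MZB1 (chr2:33834939-33837109), the immunoglobulin chaperone, was higher than before treatment in all 4 tumors at both later times. It passed from 7.84 through 10.1 to 42.0 CPM in CL cranial, from 1.2 through 1.63 to 13.6 CPM in CL caudal, and from 2.14 through 55.1 to 9.58 CPM in BM. In RV it was read 1 time before treatment (0.0666 CPM), and stood at 1.23 CPM early and at 0.271 and 0.242 CPM late. CL thus peaked late and BM early, where the ratio to the level before treatment was 25.7 (20.5 to 32.8). In RV the early ratio was 18.5 (3.0 to 765), and the late one was 3.84 (0.515 to 170), which counting error does not set apart from 1, as was the early ratio of 1.36 (0.778 to 2.46) in CL caudal.

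TNFRSF17 (chr6:31132189-31135999), the survival receptor, kept the same timing. In CL cranial it was 1.69 CPM before, 2.37 early and 28.7 late, in CL caudal 1.56, 0.285 and 12 CPM, and in BM 0.417, 5.11 and 1.60 CPM. RV held 0.333 CPM before treatment, 1.68 early, and 0.407 and 0.121 CPM late. The late ratio was 16.9 (11.9 to 24.7) in CL cranial, 7.72 (5.10 to 12.1) in CL caudal, 3.83 (2.06 to 7.49) in BM and 0.768 (0.221 to 2.98) in RV.

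JCHAIN (chr13:61022208-61030422), which links immunoglobulin into polymers, had its highest level late in both CL tumors and early in BM, as MZB1 and TNFRSF17 had. Early it was lower than before treatment in RV (76.8 to 39.0 CPM), CL cranial (635 to 405 CPM) and CL caudal (449 to 64.3 CPM), and higher in BM (134 to 728 CPM). Late it reached 1310 CPM in CL cranial and 1080 CPM in CL caudal, stood at 94.2 CPM in BM, and at 59.3 and 76.3 CPM in RV. The CL caudal tumor swung the most, 6.99-fold lower (6.62 to 7.39) early than before treatment and then 16.8-fold higher (15.9 to 17.7) late than early. In BM late, JCHAIN was at 0.706-fold (0.671 to 0.742) while MZB1 and TNFRSF17 were above their starting levels.

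**Figure D1:**
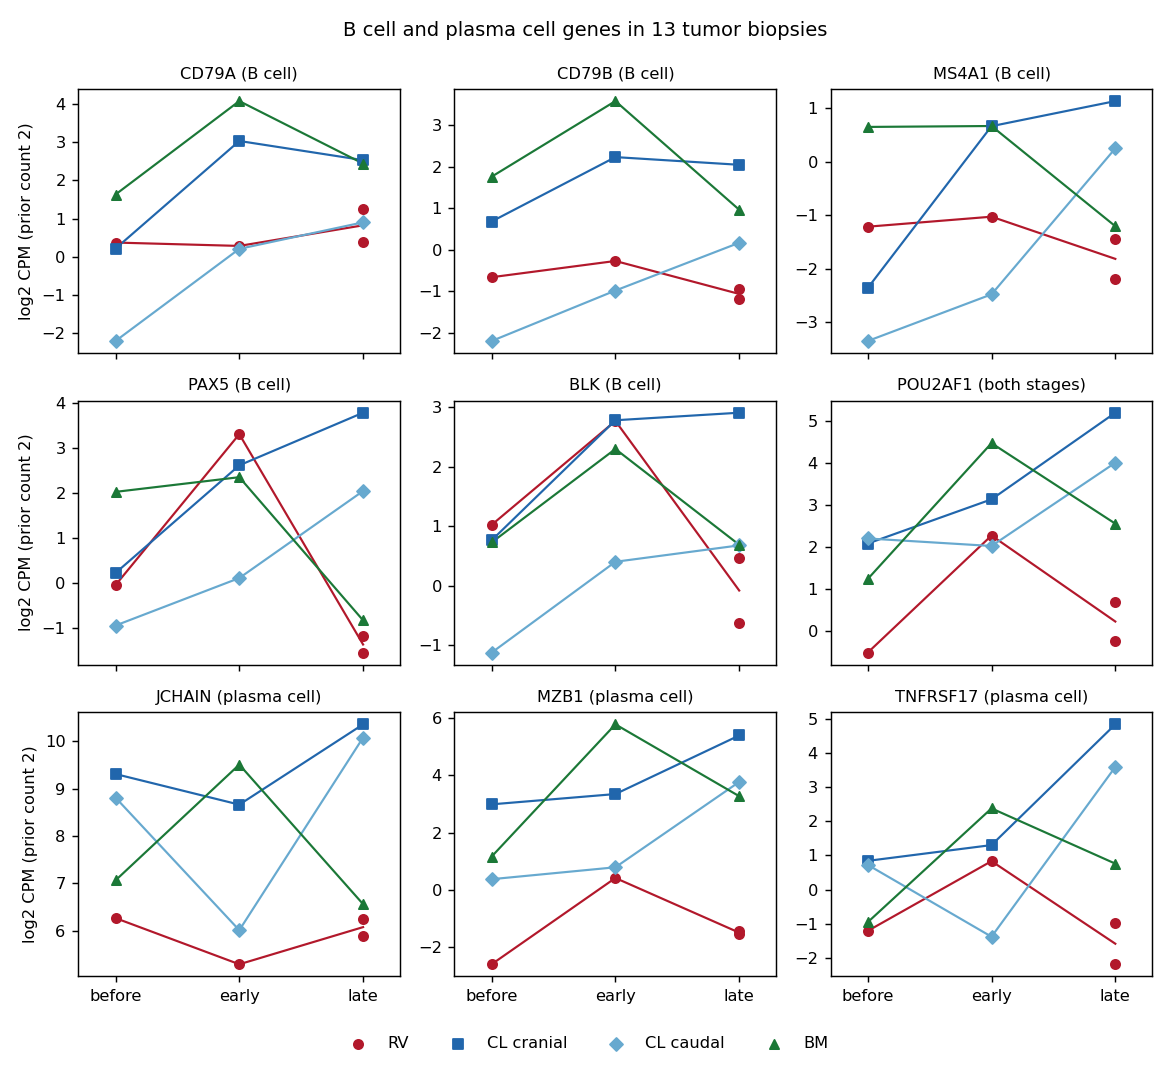
Level of each gene (vertical axis, log2 CPM with a prior count of 2, scale set for each panel) before treatment, early and late (horizontal axis), with 1 point per library and a line per tumor that passes through the mean of both late RV sites. In BM (green) 8 genes peak early and MS4A1 is level until then, and the late points of both CL tumors (blues) lie above their points before treatment in all 9 panels.

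The early comparison asked whether these genes differed from before treatment within the same tumors. Across all genes tested with edgeR's quasi-likelihood test and a term for tumor, none of the 9 passed an adjusted p of 0.05, and 0.00497% of all genes (1 gene) did. At an unadjusted p under 0.05, 4 of the 9 were higher, beside 7.70% of all genes. These were MZB1 (log2 difference 3.06 ± 1.04 SE, adjusted p = 0.331), POU2AF1 (2.23 ± 0.841, adjusted p = 0.386), CD79A (1.98 ± 0.743, adjusted p = 0.383) and BLK (1.79 ± 0.748, adjusted p = 0.435). For the other 5 the log2 difference was 2.11 for TNFRSF17, 2.04 for PAX5, 1.35 for CD79B, 0.84 for MS4A1 and -0.06 for JCHAIN. The median log2 difference was 1.79 over the 5 B cell genes and 2.11 over the 3 plasma cell genes, against 0.251 over all genes. With DESeq2, which called 3.89% of all genes higher (783 genes), MZB1 alone of the 9 passed, at 3.16 and an adjusted p of 0.0163. Several of these values rest on 1 library. Without the early RV library, edgeR gave PAX5 0.41, TNFRSF17 0.83 and POU2AF1 1.47. Without the early BM library it gave MZB1 1.83, TNFRSF17 0.95 and CD79B 0.71, and MS4A1 ran from 0.20 without CL cranial before treatment to 1.86 without BM before treatment.

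By tumor, CD79B, MS4A1, PAX5, BLK and MZB1 were higher early in 4 of 4, where 10.8% of all genes were. The size of this differed, since the MS4A1 log2 difference was only 0.02 in BM and 0.19 in RV. The number at least 2-fold higher early was 6 in CL cranial, where 16.1% of all genes were, 4 in CL caudal (29.2%), 7 in BM (19.1%) and 5 in RV (39.3%). In CL the B cell genes led: their median log2 difference was 2.40 in CL cranial and 1.21 in CL caudal, and that of the plasma cell genes 0.36 and -2.11. In BM the plasma cell genes led, with a median of 3.34 against 1.57 for the B cell genes. In RV the medians were 2.05 for plasma cell and 0.391 for B cell genes, but the sets overlapped. There PAX5 was the highest of the 9 at 3.36 and JCHAIN the lowest at -0.98, and TNFRSF17, at the plasma cell median, began from 5 counts. No gene of the 9 had its early libraries all outside the range of those before treatment, which 4.49% of all genes had.

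**Figure D2:**
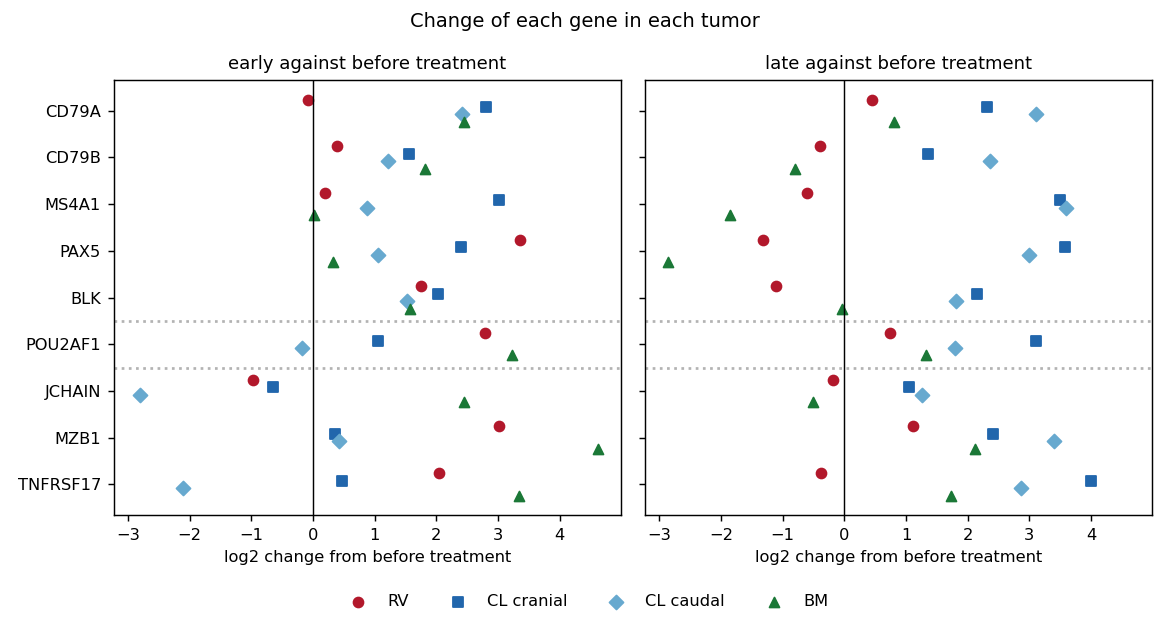
Log2 difference (horizontal axis, prior count 2) of each gene from the biopsy taken before treatment in the same tumor, early on the left and late on the right, with 1 point per tumor and the late RV sites averaged. Late, both CL tumors lie right of 0 for all 9 genes, and the green BM points lie left of 0 for CD79B, MS4A1 and PAX5 but right of it for POU2AF1, MZB1 and TNFRSF17.

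Late, no gene of the 9 and none of all 20118 passed the adjusted threshold with edgeR (0% of all genes), with 805 of all genes at an unadjusted p under 0.05. DESeq2 called 7 genes (0.0348%), none of them among the 9. At an unadjusted p under 0.05, 3 of the 9 were higher, beside 1.28% of all genes: MZB1 (log2 difference 2.54 ± 0.913 SE), POU2AF1 (1.84 ± 0.774) and CD79A (1.70 ± 0.704), all with an adjusted p between 0.973 and 0.976. TNFRSF17 had a log2 difference of 2.39 ± 1.22. Leaving out 1 library at a time moved these to between 1.68 and 3.03 for MZB1, 1.16 and 2.18 for POU2AF1, and 1.34 and 2.83 for TNFRSF17, with the lowest value without the late CL caudal library for MZB1 and without the late CL cranial library for the other two. MS4A1, at 1.29, was 0.03 without the CL caudal tumor. CD79A, POU2AF1 and MZB1 were higher in 4 of 4 tumors, as were 7.13% of all genes. The 5 late libraries overlapped those before treatment for each of the 9, and 0.651% of all genes did not overlap.

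The tumors differed more than the averages show. In the CL tumors 1 month after treatment, all 9 genes were at least 2-fold higher than before it, where 20.2% of all genes were in the cranial tumor and 7.97% in the caudal one. The B cell and plasma cell genes had similar median log2 differences there, 2.31 and 2.41 in CL cranial, and 3.0 and 2.87 in CL caudal. The B cell values of CL caudal are loose, because each of these genes began from 0 (MS4A1) to 7 (PAX5) counts. CD79A, for example, was 14.8-fold higher with an interval of 3.71 to 129. Both tumors came from 1 dog, so they are not independent animals.

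In BM 3 weeks after treatment the medians of the sets lay apart, while their members overlapped. POU2AF1, MZB1 and TNFRSF17 were at least 2-fold higher than before treatment, where 21.7% of all genes were, and PAX5 and MS4A1 at least 2-fold lower, where 29.1% were. These counts, 3 and 2 of 9, are near the shares of all genes. The median log2 difference was -0.795 over the B cell genes and 1.72 over the plasma cell genes, a gap of 2.51. Within the sets CD79A and JCHAIN went the other way: CD79A was 1.78-fold higher and JCHAIN 1.42-fold lower (1.35 to 1.49), so that JCHAIN lay below the B cell genes CD79A and BLK. BLK was at 0.972-fold (0.621 to 1.5). Each is 1 library against another, with no replicate check. The 8 epithelial markers had a median log2 difference of -4.86 between the same 2 libraries, and their part in the result was not tested.

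In RV 2 weeks after the third dose, MZB1 was at least 2-fold higher (6.15% of all genes were) and PAX5 and BLK at least 2-fold lower (7.57% were). The MZB1 ratio of 3.84 (0.515 to 170) rests on 1 count before treatment and 4 at each late site, and its interval holds 1. PAX5 was 3.01-fold lower (1.19 to 7.98) and BLK 2.16-fold lower (1.24 to 3.77). The set medians were -0.60 for B cell genes and -0.191 for plasma cell genes. The 2 late sites differed by up to 1.21 (TNFRSF17) and 1.11 (BLK) on the log2 scale, both higher at the injection site, and by -0.931 for POU2AF1, higher beside it. The median absolute difference between these sites over all genes was 0.475.

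The late and early biopsies were compared to see which tumors held the genes over time. None of the 9 passed the adjusted threshold in edgeR, which 0.00994% of all genes (2 genes) did, and adjusted p ran from 0.338 to 0.910. None had an unadjusted p under 0.05, where 8.87% of all genes were higher late and 17.7% lower. The early and late libraries overlapped for each of the 9, and 10.2% of all genes did not overlap. The averages hid opposite courses in BM and CL. All 9 genes were at least 2-fold lower late than early in BM, where 27.0% of all genes were. In RV 5 were (39.0% of all genes), while JCHAIN was 1.75-fold higher (1.61 to 1.91) there. In CL caudal 7 genes were at least 2-fold higher (18.7% of all genes) and in CL cranial 5 were (16.7%). In CL this was mostly the plasma cell genes, with a median log2 difference of 2.05 in CL cranial and 4.07 in CL caudal. The B cell medians were 0.127 and 1.15, and CD79A (-0.50) and CD79B (-0.19) were lower late in CL cranial. TNFRSF17, which rose most in CL, was 42.1-fold higher (20 to 106) late than early in CL caudal and 12.1-fold higher (9.13 to 16.2) in CL cranial. In BM it was 3.20-fold lower (2.23 to 4.71).

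The balance of the stages was also read within each library, as the counts of MZB1 and TNFRSF17 in percent of these and the counts of CD79B and MS4A1. This measure was chosen after the values were seen. It leaves out CD79A and JCHAIN, which ran against their sets in BM late, and PAX5 and BLK, so it describes these 4 genes and supports nothing on the sets. Its level depends on the lengths of the 4 genes, so it can only be compared between libraries. In BM it was 35.0% (29.2 to 41.1) before treatment, 81.9% (80.2 to 83.5) early and 83.6% (79.1 to 87.5) late. In CL cranial it was 85.7% (80.4 to 89.9), 67.2% (62.8 to 71.5) and 92.0% (90.0 to 93.7). In CL caudal it was 95.8% (85.7 to 99.5), 79.7% (67.2 to 89.0) and 92.4% (89.3 to 94.8). Both CL tumors were lowest early. In RV it was 31.6% (12.6 to 56.6) before treatment, 72.2% (60.4 to 82.1) early, and 52.6% (28.9 to 75.6) and 40% (16.3 to 67.7) late.

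**Figure D3:**
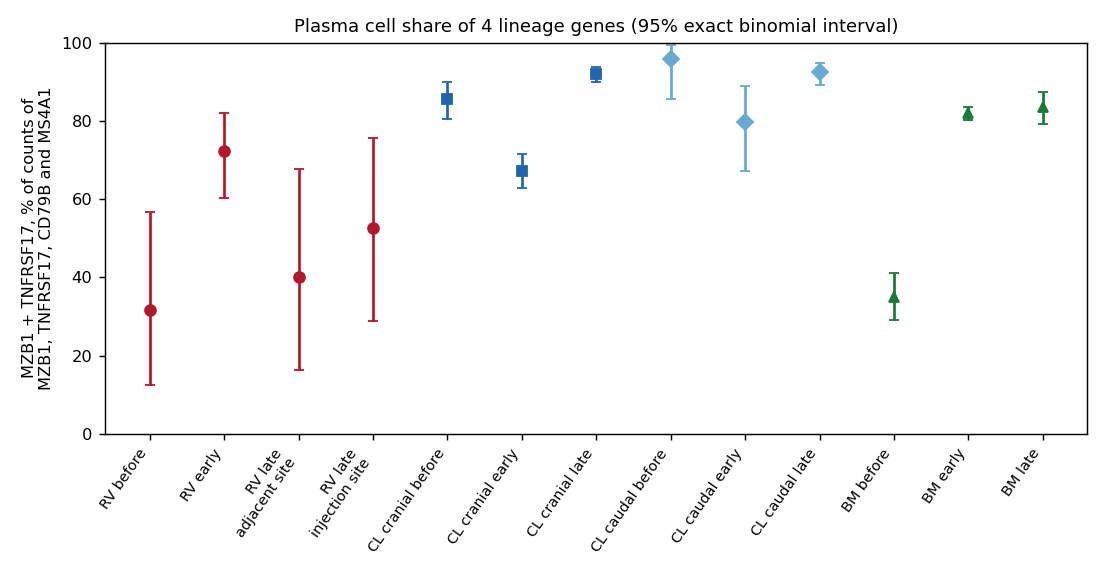
Counts of MZB1 and TNFRSF17 in percent of the counts of MZB1, TNFRSF17, CD79B and MS4A1 (vertical axis) in each of the 13 libraries (horizontal axis), with exact binomial 95% intervals for counting error as bars. The BM points are at 35.0% before treatment and at 81.9% and 83.6% after it, and the RV intervals are wide because 15 to 72 counts stand behind each.

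JCHAIN was set beside immunoglobulin itself. On chromosome 8, 7 rows annotated as constant regions lie between 73258712 and 73651046, in the heavy chain locus. They were chosen after the data were seen, 2 of them overlap, and reads of near-identical copies may have been split among them, so only their sum is used. The sum was 857 CPM in BM before treatment, 10200 early and 1020 late. It was 1430, 1590 and 998 CPM in CL cranial, 103, 177 and 318 CPM in CL caudal, and 12.5, 85.4, 22.9 (injection site) and 32.5 CPM (beside it) in RV. Heavy chain RNA was thus 11.9-fold (11.8 to 12) higher early than before treatment in BM and 6.81-fold (5.85 to 7.97) in RV, and in CL cranial late it was 1.43-fold lower while JCHAIN was 2.07-fold (2.02 to 2.12) higher.

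The JCHAIN count per heavy chain count varied from 0.0715 in BM early to 6.13 in RV before treatment. It was lowest at the early time in each tumor. In CL caudal it was 4.36 before treatment, 0.364 early and 3.40 late, and in RV 6.13, 0.457, and 2.60 and 2.34 at the late sites. In CL cranial it was 0.444, 0.254 and 1.32, and in BM 0.156, 0.0715 and 0.0925. All 3 BM libraries therefore lay below the other 10. Over the 13 libraries, Pearson's r with the heavy chain sum on the log2 scale was 0.92 for MZB1 (Spearman's rho 0.88), 0.86 for CD79B, 0.76 for POU2AF1 and 0.64 for JCHAIN. These are descriptions, because the libraries share dogs and tumors.

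**Figure D4:**
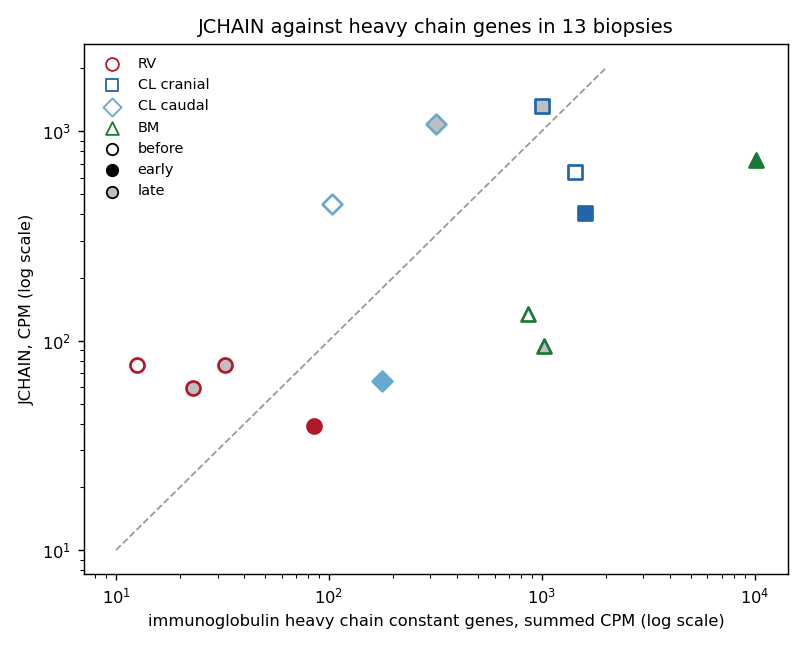
JCHAIN (vertical axis, CPM, log scale) against the summed immunoglobulin heavy chain constant genes (horizontal axis, CPM, log scale) in 13 libraries, with shape and color for the tumor, open symbols before treatment, filled early and gray late, and a dashed line at equal CPM. Early BM lies farthest right (10200 CPM) and the BM symbols lie lowest relative to the line. RV and CL caudal before treatment lie above the line, as do the late symbols of RV and of both CL tumors.

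The 9 genes fell into loose groups by their levels across the 13 libraries. POU2AF1 ran closest to the plasma cell genes, with r = 0.93 for MZB1 (rho 0.90) and 0.90 for TNFRSF17 (rho 0.90). MZB1 and TNFRSF17 had r = 0.84, and JCHAIN had 0.81 with TNFRSF17 and 0.77 with MZB1. CD79A and CD79B had r = 0.89, and PAX5 and BLK 0.86, whereas CD79A and PAX5 had only 0.49 and BLK and JCHAIN 0.22. The genes most like MS4A1 in pattern were TNFRSF4 (r = 0.93), SPIB (0.90), TIGIT (0.89), RASGRP1 (0.89) and LAT (0.88). SPIB is a B lineage transcription factor, and TNFRSF4, TIGIT and LAT are best known from T cells. Those most like JCHAIN were GP9 (0.92), LOC119869103 (0.91), LOC119869139 (0.90), GCHFR (0.89) and LOC119869101 (0.87). The first and the last of these LOC entries are annotated as immunoglobulin or receptor V segments. All are over the same 13 libraries.

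The early RV library calls for its own values, since PAX5 and BLK stood high in it while CD79A, CD79B and MS4A1 did not. PAX5 was 11.3-fold (6.46 to 21.7) and BLK 3.49-fold above the level before treatment, and CD79A was at 0.936-fold (0.470 to 1.88), CD79B at 1.37-fold (0.526 to 3.81) and MS4A1 at 1.18-fold (0.322 to 4.71). PAX5 spans 195 kb of the genome and BLK 75 kb, while CD79A, CD79B and MS4A1 span 3.55, 3.32 and 11.4 kb. In the same pair of libraries the median log2 difference of all genes was -0.775 for genes that span under 5 kb, -0.266 for 5 to 20 kb, 0.547 for 20 to 100 kb and 1.66 for 100 kb or more. In the other 3 tumors these medians ran from -0.393 to 0.525. The plasma cell genes MZB1 (2.17 kb), TNFRSF17 (3.81 kb) and JCHAIN (8.21 kb) had early ratios of 18.5 (3.0 to 765), 5.05 (1.94 to 16.7) and 0.508 (0.461 to 0.558). MZB1 began from 1 count and TNFRSF17 from 5. The part of gene span in the RV values was not tested.

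**Figure D5:**
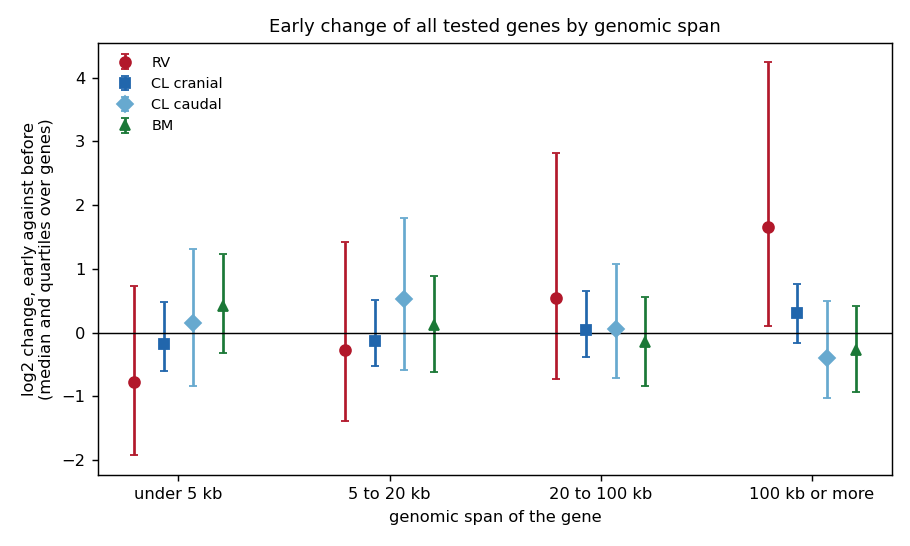
Log2 difference of all tested genes between the early biopsy and the biopsy before treatment (vertical axis, point at the median, bars from the lower to the upper quartile over genes) by genomic span of the gene (horizontal axis) in each tumor. In RV the median climbs from -0.775 for genes under 5 kb to 1.66 for genes of 100 kb or more, and the other tumors stay between -0.393 and 0.525.

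The sarcoma and the mammary tumors were compared by an interaction of time and tumor type, added after the data were seen. With edgeR it called 0 genes at either time, with 4908 (early) and 545 (late) at an unadjusted p under 0.05. None of the 9 genes passed. The late difference in change, sarcoma minus mammary, was -2.55 ± 1.195 SE for BLK, -3.54 ± 2.02 for PAX5, -3.67 ± 2.26 for TNFRSF17 and -1.02 ± 3.02 for MZB1, with adjusted p of 0.998 or more. With 1 sarcoma in the fit, differences of this size could not be told from none.

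Other genes of the lineage were described by lists. The B cell receptor signaling list (kinases, adaptors and coreceptors downstream of CD79) had 17 genes tested, and all 17 were higher early, 11 of them at an unadjusted p under 0.05 (7.70% of all genes) and 11 higher in 4 of 4 tumors (10.8% of all genes), with a median log2 difference of 1.88 against 0.251 over all genes. Late, 12 of 17 were higher with a median of 0.213. No gene of any list passed the adjusted threshold at any time. RASGRP3, an activator of Ras in B cells, had 0.84 ± 0.494 late, and the rule that named it required a higher late value in all tumors. Before treatment it stood at 71.7 CPM in RV, where the 5 B cell genes summed to 4.86 CPM. In BM it stood at 11.7 CPM, where they summed to 13.3 CPM. Many of these kinases and adaptors are also used by myeloid cells, and the 10 macrophage markers had an early median of 1.74 in the same libraries. Their part in the result was not tested.

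Among 14 B lineage identity genes, 11 were higher early (median 1.2) and 9 late (median 0.473). CD40, the receptor for T cell help, had a log2 difference of 1.55 ± 0.404 early and 0.76 ± 0.381 late. It was higher in 4 of 4 tumors early, and the rule that named it required this late. TNFRSF13C, the BAFF receptor, had 0.63 ± 0.552 late. The 7 germinal center genes tested had medians of 0.285 early and -0.157 late, near those of all genes, and none was named by the rule.

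The plasma cell program (20 genes) had 15 genes higher early and 15 late, with medians of 0.551 and 0.506. XBP1, which drives the secretory program, had a log2 difference of 0.97 ± 0.499 late and was higher in 4 of 4 tumors: by 2.36 in CL cranial, 1.54 in BM, 0.32 in CL caudal and 0.20 in RV. PRDM1, the repressor that ends the B cell program, was also higher in 4 of 4 late (0.75 ± 0.638), most in CL cranial at 1.80. IRF4, needed for plasma cell formation, had 1.13 ± 0.675 early and 0.48 ± 0.651 late. CD27 and SLAMF7, surface proteins of plasma cells and of other lymphocytes, had 1.39 ± 0.739 and 1.0 ± 0.846 late. SDC1 and CD38 are used to sort plasma cells but are made by other cells too. Here SDC1 reached 707 CPM in BM late and CD38 175 CPM in CL caudal before treatment, and neither followed MZB1 in that tumor. Elsewhere CD38 was highest at the same time as MZB1: early in BM (3.42, 33.8 and 7.14 CPM), early in RV and late in CL cranial. For SDC1 this held in RV only.

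Signals that draw B cells or keep them alive had a log2 difference above 0 early in the fit for 13 of 13 genes tested, with a median log2 difference of 1.57 early and 0.25 late. The tumors did not share this: 4 of the 13 were higher early in 4 of 4 tumors, where 10.8% of all genes were, and the list's early median was -0.302 in CL caudal. Summed over 17 genes the list was lower early in CL caudal (156 to 111 CPM) and in RV (655 to 206 CPM), and higher in CL cranial (140 to 341 CPM) and BM (129 to 1410 CPM). In RV the sum and the median went opposite ways, since the early median of the 13 tested genes was 2.01 there. CCL21, which guides lymphocytes to lymphoid tissue, had 4.90 ± 1.22 early (adjusted p = 0.182), with -1.32 in CL caudal, and 1.48 ± 1.04 late, and CCR6, a chemokine receptor of B cells among others, had 1.59 ± 0.672 and 1.0 ± 0.639. CXCL13, the chemokine that draws B cells into follicles, was at 0.968, 11.1 and 14 CPM in CL cranial and at 0.299, 0.285 and 9.76 CPM in CL caudal. In BM it was 1.14, 7.92 and 0.798 CPM, and in RV it kept between 0.505 and 0.933 CPM.

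Markers of other cells are given beside these results. T cell markers (12 genes) had median log2 differences of 1.46 early and 1.01 late, with all 12 higher in the fit at both times and none at 0 in any library. Early 8 of them were higher in 4 of 4 tumors (10.8% of all genes were), and late 2 were (7.13%). The markers' late medians were 2.08 in CL cranial, 2.53 in CL caudal, -0.179 in BM and 0.0284 in RV. Their summed level was 39.2, 322 and 182 CPM in CL cranial, 28.1, 53.1 and 129 CPM in CL caudal, 60.9, 143 and 79.3 CPM in BM, and 64.2 to 82.6 CPM in RV. In all 3 mammary tumors they therefore stood on the same side of the starting level as the summed B cell genes, except in BM late. CD3E, part of the T cell receptor, had 1.97 ± 0.608 early and 1.15 ± 0.568 late, LCK had 1.31 ± 0.532 late and CD3D 1.71 ± 0.831. Plasmacytoid dendritic cells can also hold JCHAIN and MZB1 transcripts. Their 7 tested markers had medians of 1.42 early and 0.562 late, and of the 9 markers counted PTCRA, SCT or both were at 0 in 9 libraries. Within that list DNASE1L3 had 1.18 ± 0.588 and IL3RA 0.99 ± 0.656 late. In BM the list's summed level was 407 CPM late against 189 CPM before treatment and 415 CPM early. Late in BM the median change was higher for the plasma cell than for the B cell genes, while their members overlapped. The 10 macrophage markers summed to 295 CPM in BM before treatment, 3490 early and 1380 late, and VSIG4 and C1QA had 1.07 ± 0.545 and 0.84 ± 0.575 late. The 7 neutrophil markers summed to 4560 CPM in the early RV library and 32.9 CPM before it, and over the 4 tumors had medians of 2.89 early and -0.908 late. Epithelial markers had medians of 0.867 early and -1.27 late, with ELF5 at -1.45 ± 0.811 and CDH1 at -1.32 ± 0.705 late, both lower in 4 of 4 tumors. The part of these cells in the values of the 9 genes was not tested.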

How the data were processed

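Strand-specific RNA-seq was made from tumor biopsies of 3 dogs. Per the methods, reads were aligned to CanFam4.0 in Strand NGS and normalized by TMM in edgeR; versions are not given in the sources used here. The deposited table holds raw counts of reads per gene symbol for 13 libraries, as the authors made them, and 98.0% of symbols matched RefSeq (UU_Cfam_GSD_1.0), used for positions.

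Genes were filtered with edgeR 4.0.16 (filterByExpr, minimum count 10) in R 4.3.3, scaled by TMM, and tested with robust quasi-likelihood fits on time group and tumor over all 13 libraries (7 residual degrees of freedom, common biological coefficient of variation 0.672), with Benjamini-Hochberg adjustment over 20118 genes at 0.05. SE is the log2 difference divided by the root of F. Changes within a tumor are differences of log2 CPM with prior count 2, with ratios of CPM and exact binomial counting intervals. The script was tested on simulated data. DESeq2 1.42.0 and other settings were alternatives. Libraries of the same tumor deviated together (mean r 0.343 over 14 pairs, from -0.0965 to 0.773, against -0.114 between tumors), which is why tumor stayed in the model. Nothing states that libraries of a group are replicates of 1 condition. With the tumor term in the model, p-values set the average change over time against the spread of that change among tumors. The difference between the 2 late RV sites also enters that spread. Both late RV sites and both CL tumors entered as separate units, though each pair came from 1 dog.

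The 9 genes and all lists were chosen with earlier results of these data known. Named list genes are the 2 with the largest late difference in the direction of the list median and of all 4 tumors, plus 8 defining genes, of which 1 is not reported here. Levels of different genes are not compared, since no transcript lengths were used. A planned search of promoter and protein sequences was not run.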

Additional observations from a re-analysis of the deposited data

Results flagged for a closer look

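Of 33 groups of 4 or 5 libraries examined, 2 held a library far from the others, where chance gives about 1.65. BLK before treatment was at -1.13 log2 CPM in the CL caudal library, against 0.726 to 1.02 in the other 3 tumors, a gap of 0.862 of the whole range. The log2 ratio of JCHAIN to heavy chain counts late was -3.43 in BM, against 0.397 to 1.76 in the other 4 late libraries, a gap of 0.737 of the range. BM also had the lowest ratios before treatment and early (-2.68 and -3.81).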

How the results depend on the processing

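The log2 differences of the 9 genes turned sign in 20 of 297 settings other than leaving out a library and in 23 of 351 that left 1 out. As edgeR called 0 to 2 genes with the settings of the report, keeping to 1 side of the threshold says nothing of stability. Under settings that left out no gene, the late gap between the medians of plasma cell and B cell genes ran from 2.14 to 2.7 in BM and 0.31 to 0.97 in RV, and its sign turned in CL cranial (-0.31 to 0.45) and CL caudal (-0.66 to 0.19). With edgeR, genes called early numbered 0 with RLE scaling, without the tumor block, with a dog block, with only the compared libraries, with the RV sites summed and without each tumor, 17 without the filter and 0 to 12 without 1 library, and 956 with DESeq2. Late, DESeq2 called 7. Late against early, edgeR called 0 without the block, with a dog block, with only the compared libraries, with the RV sites summed and without each tumor, 1081 without the filter and 0 to 1535 without 1 library, and DESeq2 4809.

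Signs that turned were these log2 differences. JCHAIN early was 0.01 with a dog block, and 0.36, 0.23 and 0.59 without RV, CL cranial and CL caudal. PAX5 late was -0.66 without CL cranial and -0.56 without CL caudal. Late against early, leaving out BM gave CD79A 0.21, CD79B 0.06, POU2AF1 0.32 and MZB1 0.60, leaving out RV gave PAX5 0.91, POU2AF1 0.62 and MZB1 0.59, and leaving out CL caudal gave MS4A1 -0.61, JCHAIN -0.27 and TNFRSF17 -0.73. Without CL cranial TNFRSF17 was -0.87, without the block MS4A1 was -0.16 and POU2AF1 0.29, and with only the compared libraries MS4A1 was -0.04. Without 1 library, JCHAIN ran from -1.52 to 0.69 early and -0.03 to 1.01 late, and PAX5 from -0.69 to 1.84 late. Late against early, CD79A ran from -0.78 to 0.12, MS4A1 from -0.73 to 1.04, PAX5 from -2.66 to 0.29, POU2AF1 from -0.96 to 0.43, JCHAIN from -0.16 to 1.88, MZB1 from -1.30 to 0.56 and TNFRSF17 from -0.59 to 1.60. The cause was not tested. Counts of 0 to 53 for MS4A1 limit what its ratios show, and with 1 library per tumor and time no ratio within a tumor has a replicate check. No paired analysis by replicate number was possible because the labels carry none; pairing was by tumor.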

Other observations

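On chromosome 26, 5 rows annotated as immunoglobulin lambda constant regions had 0 counts in all 13 libraries, including the early BM library with 286951 counts over the heavy chain rows. How reads of near-identical rows were counted is not given in the sources used here, so a listed 0 need not mean that no such transcript was present. The JCHAIN count per MZB1 count was 62.4 in BM before treatment, 13.2 early and 9.84 late, and in CL caudal 376, 39.5 and 79.5. In RV before treatment it was 1150, with 1 MZB1 count behind it.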
